A study of Homo sapiens with 21 samples.

Results

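Glutamine is taken up by carriers in the plasma membrane, made or broken down by a small set of enzymes, and passed on as glutamate and aspartate, and 9 genes of this traffic are described here in BT-549 cells. They are GLUL, GLS2, GLUD1, GOT1 and GOT2, which encode enzymes, and SLC1A5, SLC38A2, SLC7A5 and SLC3A2, which encode carriers or their subunits. The members were chosen by symbol, and each of the 9 symbols matched 1 row of the deposited count table, out of 42339 genes in all. On GRCh38, the enzyme genes lie at chr1:182378098-182392206 (GLUL), chr12:56470944-56488414 (GLS2), chr10:87050202-87094843 (GLUD1), chr10:99396870-99430624 (GOT1) and chr16:58707131-58734342 (GOT2). The carrier genes lie at chr19:46774883-46788594 (SLC1A5), chr12:46358188-46372773 (SLC38A2), chr16:87830023-87869507 (SLC7A5) and chr11:62856004-62888880 (SLC3A2). All but SLC3A2 are on the minus strand.

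BT-549 is an established human TNBC (triple-negative breast cancer) cell line, wild-type for BRCA1, and the study asked how its mammospheres, used as a model of cancer stem cells, depend on MUC1-C and MYC. RNA from 21 cultures was sequenced, 3 in each of 7 conditions. The 2D cells were monolayers in RPMI1640 with serum and insulin, while every other condition was grown as mammospheres in MammoCult medium on ultra-low attachment plates, so growth form and medium cannot be told apart. The 3D cells were control mammospheres at passage 6, and their GO-203 counterparts received 0.75 umol/L of this peptide inhibitor of MUC1-C. The paper's figure legends call the control of GO-203 vehicle, without naming it. The tet-MUC1shRNA mammospheres (passage 6) and the tet-MYCshRNA mammospheres (passage 8) carried 1 inducible shRNA each and received 0.1% DMSO as vehicle or 500 ng/ml doxycycline (DOX), for 10 days in the tet-MUC1shRNA line. No library of a DOX-treated control shRNA line was analysed, so the effects of DOX and of the silencing cannot be told apart. All replicates were cultures of 1 cell line, and p-values set a difference against the spread between such cultures.

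Glutamine synthetase, the product of GLUL, joins glutamate and ammonia to form glutamine, and GLS2, a glutaminase, catalyzes the reverse step. GLUD1, the mitochondrial glutamate dehydrogenase, and the aspartate transaminases GOT1 (cytosolic) and GOT2 (mitochondrial) connect glutamate with the citric acid cycle and the malate-aspartate shuttle. SLC1A5 and SLC38A2 take up glutamine with sodium, and SLC7A5 (LAT1), which is bound to its heavy chain SLC3A2 (CD98hc), exchanges intracellular amino acids for large neutral ones. In many cancers MYC is known as an activator of glutamine uptake and breakdown.

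The starting regions of 4 of the genes are shown. GLUD1 and GOT2 were chosen for their falls with MYC silencing, the largest among the 8 tested genes, and GOT1 and SLC7A5 because an E-box or composite element was found there. Each sequence is the 250 bases before the start of the gene's main (MANE) transcript in RefSeq, on GRCh38.p14, read 5′ to 3′ on the minus strand of the genome. Capitals mark 3 motifs, searched on both strands. These were the E-box CACGTG, to which MYC and related factors bind, the composite element TGATGNAA, to which C/EBP and ATF factors bind, and the CCAAT box.
GLUD1, chr10:87094844-87095093: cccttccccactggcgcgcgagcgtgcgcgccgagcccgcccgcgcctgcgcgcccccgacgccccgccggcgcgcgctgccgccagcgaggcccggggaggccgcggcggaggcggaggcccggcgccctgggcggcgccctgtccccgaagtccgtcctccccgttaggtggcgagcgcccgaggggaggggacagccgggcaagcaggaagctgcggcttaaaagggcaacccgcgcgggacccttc
GOT1, chr10:99430625-99430874: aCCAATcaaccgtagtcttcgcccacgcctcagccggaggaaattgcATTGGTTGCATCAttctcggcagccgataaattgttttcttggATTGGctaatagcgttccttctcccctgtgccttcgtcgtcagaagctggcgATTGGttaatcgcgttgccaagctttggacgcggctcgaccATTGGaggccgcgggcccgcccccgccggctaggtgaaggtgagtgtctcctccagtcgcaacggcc
GOT2, chr16:58734317-58734566: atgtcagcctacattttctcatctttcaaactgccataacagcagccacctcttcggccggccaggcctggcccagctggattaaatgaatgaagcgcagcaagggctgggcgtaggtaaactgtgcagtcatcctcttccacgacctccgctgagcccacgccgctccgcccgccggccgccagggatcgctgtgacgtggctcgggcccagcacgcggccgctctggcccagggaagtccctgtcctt
SLC7A5, chr16:87869508-87869757: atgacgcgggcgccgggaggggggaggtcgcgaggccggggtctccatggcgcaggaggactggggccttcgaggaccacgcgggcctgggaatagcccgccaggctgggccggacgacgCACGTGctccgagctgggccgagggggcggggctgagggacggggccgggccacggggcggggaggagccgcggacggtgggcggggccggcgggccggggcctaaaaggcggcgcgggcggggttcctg

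Of the 9 genes, only SLC7A5 had the E-box in this window, beginning 130 bases before its start, and 6.34% of the 35116 promoter windows in the table held it. The composite element was found once, in GOT1, beginning 198 bases before the start next to a CCAAT box, and 3.14% of windows held this element. CCAAT boxes were found in GOT1 (5), GLUL (2), SLC1A5 (1) and SLC3A2 (1), against 32.0% of all windows with at least 1. The windows of GLUL, SLC1A5 and SLC3A2, with CCAAT boxes alone, are not shown. No motif match overlapped another in these windows. A match describes letters in a window and not a bound site.

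Libraries held 38026597 to 99751717 counts (median 53548353). As a check of the silencing, MUC1 was at 101, 83.1 and 86.6 CPM (counts relative to library size, scaled by TMM factors over all 21 libraries) with vehicle and at 19.7, 21.2 and 23.3 CPM with DOX in the tet-MUC1shRNA line. MYC was at 439, 418 and 386 CPM with vehicle and at 244, 279 and 297 CPM with DOX in the tet-MYCshRNA line. Each target also moved in the other line, with a log2 fold change of 1.25 (SE 0.11, adjusted p = 5.1e-06) for MUC1 with MYC silencing and of 0.25 (SE 0.04, adjusted p = 5.0e-05) for MYC with MUC1 silencing. MUC1 rose with GO-203 as well (0.33, SE 0.07, adjusted p = 0.00191), whereas MYC was not called (-0.01, SE 0.05, adjusted p = 0.908). The part of these shifts in the changes of the 9 genes was not tested. Of the 4 markers of these mesenchymal cells, VIM was at a mean of 1094 to 2463 CPM and ZEB1 at 93.8 to 323 CPM over the 7 conditions, whereas SPARC was at 4463 CPM in 2D cells and 199 to 451 CPM in mammospheres, and CDH2 was at 441 and 11.9 to 74.1 CPM. The summed level of 6 markers of blood, endothelium and liver was 1.37 to 1.73 CPM in 2D libraries and 2.67 to 10.4 CPM in mammosphere libraries. In 2D cells this sum was mostly PTPRC, at a mean of 1.25 CPM against 0.0131 to 0.105 CPM in mammospheres, and in mammospheres it was mostly PECAM1, at 2.99 to 9.36 CPM against 0.0114 CPM in 2D cells. The other 4 stayed below 1 CPM in every library. The part of such marker shifts in the results was not tested.

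The first comparison asked how the 9 genes differed between 3D and 2D cells. GLUL was nearly silent in 2D cells and abundant in 3D cells. The other enzymes that could be tested, GLUD1, GOT1 and GOT2, rose by 1.38- to 1.60-fold. Among the carriers, the glutamine carriers SLC1A5 and SLC38A2 rose slightly. The mRNAs of both chains of the LAT1 exchanger, SLC7A5 and SLC3A2, fell. In all, 6 genes rose and 2 fell among the 8 tested, at an adjusted p below 0.1 in edgeR's quasi-likelihood test. GLS2 had too few counts to enter any test. Among all 19190 genes tested 63.7% were called, 32.0% as risen and 31.7% as fallen. The median log2 fold change of the 8 genes was 0.37 and that of all genes -0.01.

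GLUL had 0.310, 0.487 and 0.479 CPM in the 3 libraries of 2D cells, or 14, 28 and 28 reads. In 3D cells it had 780, 728 and 747 CPM, from 37323 to 48211 reads per library. The log2 fold change was 10.75 (SE 0.10, adjusted p = 1.6e-19 from edgeR). It was the only 1 of the 8 past the study's further threshold of 1.5 on the log2 scale in this comparison, where 6.90% of all genes had risen and 9.29% had fallen that far. The pseudogene GLULP4, which may share reads with GLUL, went from 0.0148 CPM in 2D cells to 1.51 CPM in 3D cells, a small fraction of the level of GLUL.

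**Figure D1:**
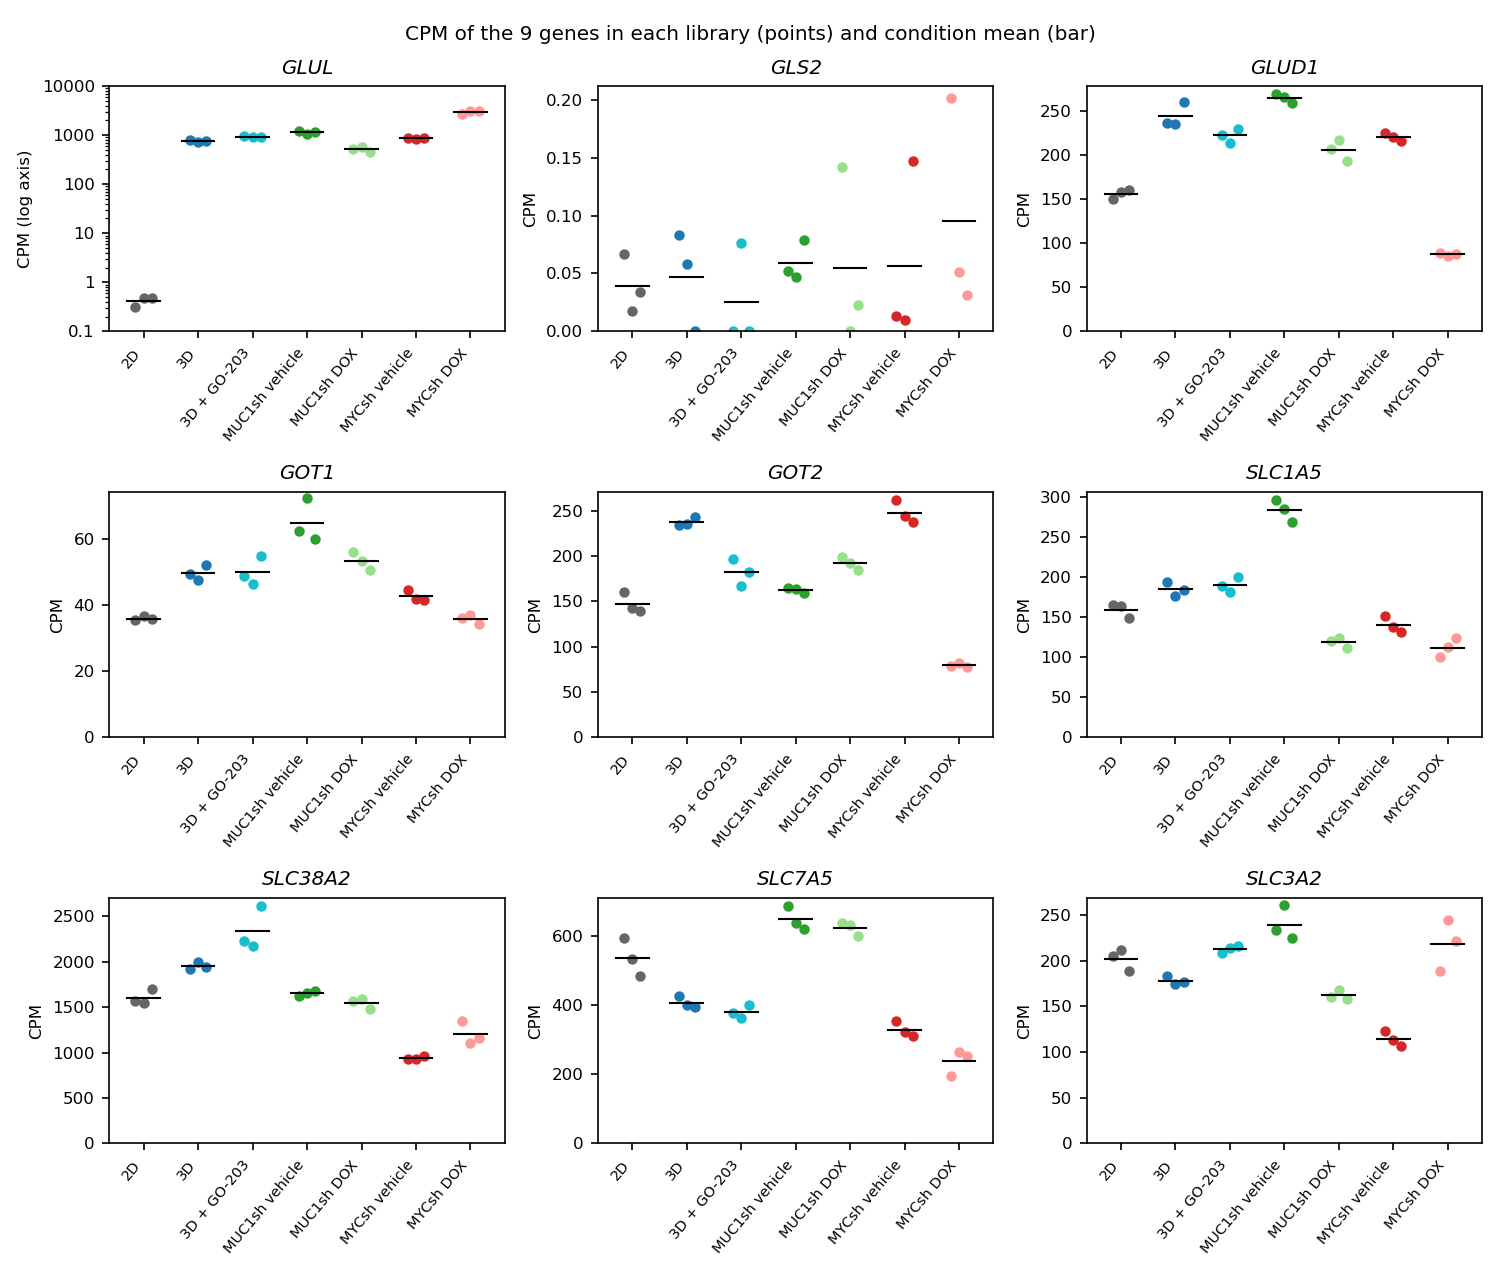
CPM of each gene (y axis, logarithmic for GLUL and linear from 0 for the others) in the 3 libraries of each of the 7 conditions (x axis). Points are libraries and bars are means, MUC1sh and MYCsh being the tet-MUC1shRNA and tet-MYCshRNA lines. GLUL lies below 0.5 CPM in 2D cells only, and GLS2 never passes 0.202 CPM.

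For the mitochondrial enzymes, GLUD1 was at 150, 157 and 160 CPM in 2D cells and at 236, 234 and 260 CPM in 3D cells (log2 fold change 0.64, SE 0.06, adjusted p = 7.1e-08). GOT2 was at 160, 143 and 140 CPM in 2D cells and at 234, 235 and 243 CPM in 3D cells (0.68, SE 0.06, adjusted p = 6.1e-08). The cytosolic GOT1 ranged from 35.5 to 36.7 CPM in 2D cells and from 47.7 to 52.2 CPM in 3D cells (0.46, SE 0.06, adjusted p = 6.3e-06). For none of these enzymes did the 2D and 3D libraries overlap.

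The carriers changed less. SLC1A5 had 165, 164 and 148 CPM in 2D cells and 193, 176 and 184 CPM in 3D cells, with a log2 fold change of 0.21 (SE 0.06, adjusted p = 0.00699). SLC38A2, the most abundant carrier per kb of transcript, ranged from 1542 to 1698 CPM in 2D cells and from 1918 to 1997 CPM in 3D cells (0.28, SE 0.05, adjusted p = 0.000186). SLC7A5 went the other way, with 593, 534 and 483 CPM in 2D cells and 426, 399 and 395 CPM in 3D cells (-0.40, SE 0.07, adjusted p = 7.1e-05). Its partner SLC3A2 ranged from 189 to 211 CPM in 2D cells and from 174 to 183 CPM in 3D cells (-0.19, SE 0.06, adjusted p = 0.0108). The libraries of the 2 groups did not overlap for any of the 4 carriers, although the gap for SLC3A2 was narrow. The share of all genes without such overlap is not given here, and 63.7% of all genes were called. The separation is thus not shown to be particular to these enzymes and carriers.

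GLS2, the liver-type glutaminase, was counted at 0 to 10 reads per library in all 7 conditions, at most 0.202 CPM. The annotation places 77.1% of its exon bases opposite exons of SPRYD4, which had 7.99 to 20.96 CPM, and the strand setting of the counting was not given in the sources used here.

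The vehicle-treated mammospheres of both tet lines offered 2 more sets of mammospheres, and each was compared with the same 3 libraries of 2D cells, so the 3 comparisons are not independent. In vehicle-treated tet-MUC1shRNA mammospheres 7 of the 8 genes rose and 0 fell, where 73.9% of 19018 genes were called (36.1% risen and 37.8% fallen). In vehicle-treated tet-MYCshRNA mammospheres 4 rose and 4 fell, where 66.2% of 19948 genes were called (33.8% risen and 32.4% fallen). In each, GLUL alone passed a log2 fold change of 1.5, which 10.4% of all genes passed as rises and 11.7% as falls in the former set and 7.76% and 9.39% in the latter. The 4 enzymes were called as higher in each set. GLUL reached 1194, 1064 and 1143 CPM in the tet-MUC1shRNA set (log2 fold change 11.34, SE 0.11) and 873, 843 and 863 CPM in the tet-MYCshRNA set (10.95, SE 0.09). For GLUD1 the values were 0.76 (SE 0.05) and 0.50 (SE 0.05), and for GOT1 they were 0.85 (SE 0.07) and 0.25 (SE 0.06).
GOT2 was at 165, 164 and 160 CPM in the tet-MUC1shRNA set, which overlapped 2D cells (0.14, SE 0.06, adjusted p = 0.0469). This call was lost without 2D replicate 2 (adjusted p = 0.163) or 3 (0.158) and under 3 other settings. In the tet-MYCshRNA set GOT2 was at 262, 244 and 237 CPM (0.75, SE 0.06, adjusted p = 8.5e-08).

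No carrier moved in the same direction in all 3 sets. SLC7A5 was at 685, 638 and 621 CPM in the tet-MUC1shRNA set (log2 fold change 0.27, SE 0.07, adjusted p = 0.00205) and at 353, 323 and 312 CPM in the tet-MYCshRNA set (-0.70, SE 0.07, adjusted p = 7.8e-07). SLC3A2 gave 0.24 (SE 0.06) and -0.81 (SE 0.06). SLC38A2 gave 0.04 (SE 0.05, adjusted p = 0.464) and -0.76 (SE 0.05). SLC1A5 gave 0.83 (SE 0.06) and -0.18 (SE 0.06, adjusted p = 0.018), and the latter, for which the libraries overlapped, was not called without tet-MYCshRNA vehicle replicate 3 (adjusted p = 0.104). Line and passage differed between these sets. Solvent may have differed too, since the vehicle of both tet lines was 0.1% DMSO and that of the 3D cells was not named. The parts of line, passage and solvent cannot be told apart.

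**Figure D2:**
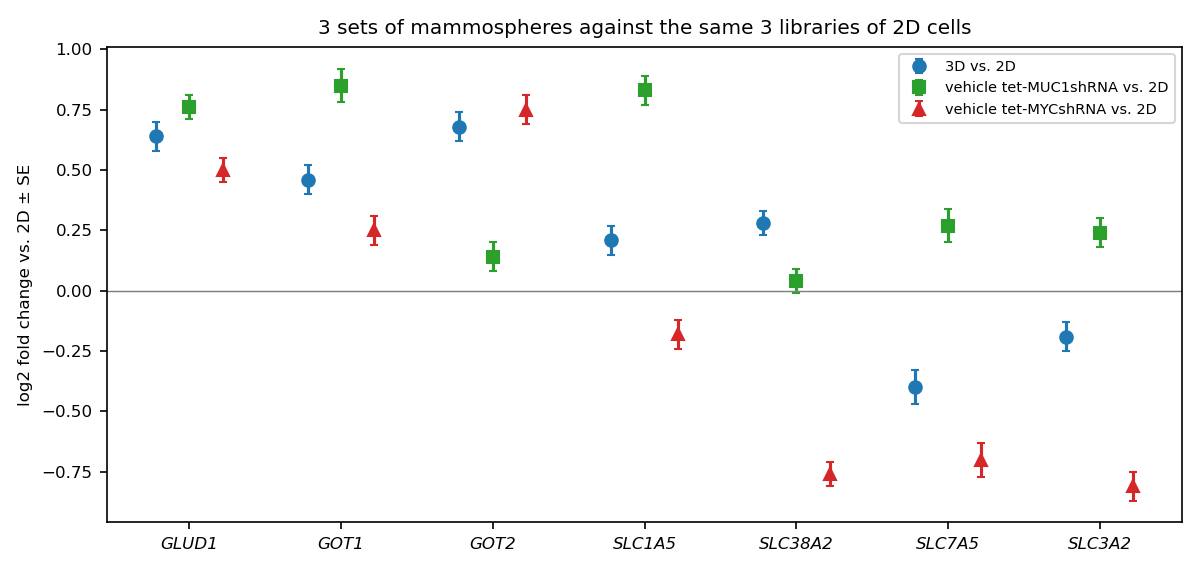
Log2 fold change with its SE (y axis) of 7 genes (x axis) in 3D cells (circles), vehicle-treated tet-MUC1shRNA mammospheres (squares) and vehicle-treated tet-MYCshRNA mammospheres (triangles), each against the same 3 libraries of 2D cells; GLUL, at 10.75 to 11.34, is left out. GLUD1, GOT1 and GOT2 lie above 0 in all 3 sets, whereas the carriers split, with SLC7A5 at -0.40, 0.27 and -0.70.

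The second comparison addressed MUC1-C by DOX treatment of the tet-MUC1shRNA mammospheres. The largest falls were those of the glutamine carrier SLC1A5 and of GLUL, each to under 50% of the vehicle level, followed by SLC3A2 and GLUD1. GOT2 rose. Of the 8 genes, 1 rose and 6 fell, where 62.2% of 19220 genes were called (30.7% risen and 31.6% fallen), and 0 of the 8 passed a log2 fold change of 1.5 in either direction, where 5.74% of all genes had risen and 3.08% had fallen that far. Their median was -0.30, against 0.02 for all genes. Scaling by library size alone moved the median of all genes by 0.17 on the log2 scale in this comparison, and with it 49.3% and 64.4% of calls were rises under the main scaling and library size alone, respectively. Under library size alone 3 of the 8 genes rose, as SLC38A2 and SLC7A5 were then called as risen. GOT1 lost its call as a fall.

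SLC1A5 was at 296, 284 and 268 CPM with vehicle and at 121, 124 and 111 CPM with DOX. The log2 fold change was -1.23 (SE 0.05, adjusted p = 8.8e-15), and 23.8% of the exon bases of SLC1A5 lie opposite exons of other genes. GLUL was at 1194, 1064 and 1143 CPM with vehicle and at 532, 562 and 454 CPM with DOX (-1.11, SE 0.06, adjusted p = 7.7e-13). It thus remained far above the level in 2D cells. SLC3A2 fell from 233, 261 and 224 CPM to 160, 167 and 158 CPM (-0.54, SE 0.05, adjusted p = 1.3e-08).

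SLC7A5, by contrast, was at 685, 638 and 621 CPM with vehicle and at 636, 631 and 601 CPM with DOX, overlapping, with a log2 fold change of -0.03 (SE 0.04, adjusted p = 0.51) that became 0.13 (adjusted p = 0.00607) under library size alone. SLC38A2 ranged from 1625 to 1683 CPM with vehicle and from 1478 to 1591 CPM with DOX. Its log2 fold change of -0.08 (SE 0.04, adjusted p = 0.0994) was just past the threshold and lost the call under 5 of the 6 omissions of a library. The call was also lost with DESeq2 (adjusted p = 0.101), RLE factors (0.116), a joint fit of the 21 libraries (0.236), the replicate block (0.117), a filter of 1 count (0.14) and a filter of 10 counts per library (0.611), and the value became 0.09 (adjusted p = 0.0379) under library size alone. The count of 6 falls includes SLC38A2. The mRNAs of the chains of the LAT1 exchanger thus did not move together. The ratio of SLC3A2 to SLC7A5 counts within a library was 0.340, 0.409 and 0.361 with vehicle and 0.252, 0.266 and 0.263 with DOX.

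Among the other enzymes, GLUD1 fell from 269, 265 and 259 CPM to 207, 216 and 193 CPM (-0.34, SE 0.04, adjusted p = 1.0e-06). GOT1 ranged from 60.1 to 72.4 CPM with vehicle and from 50.8 to 56.2 CPM with DOX (-0.26, SE 0.06, adjusted p = 0.00175), a call that was lost under library size alone (-0.09, adjusted p = 0.224). GOT2 rose from 165, 164 and 160 CPM to 199, 192 and 184 CPM (0.26, SE 0.04, adjusted p = 2.1e-05).

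The third comparison asked for the effect of GO-203 on 3D cells, and it shares its control libraries with the first. Changes were small, the largest being 1.28-fold. GLUL, SLC38A2 and SLC3A2 rose, GOT2 fell, and the other 4 tested genes were not called. That is 3 rises and 1 fall among 8, where 24.1% of 18488 genes were called (11.1% risen and 12.9% fallen), and 0 passed a log2 fold change of 1.5 (0.498% of all genes as rises and 0.260% as falls). The median of the 8 was 0.06, against 0.02 for all genes.

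GLUL was at 780, 728 and 747 CPM in 3D cells and at 947, 912 and 933 CPM with GO-203, a log2 fold change of 0.34 (SE 0.05, adjusted p = 1.7e-05). SLC3A2 was at 183, 174 and 176 CPM without and 208, 214 and 216 CPM with the inhibitor (0.29, SE 0.06, adjusted p = 0.000664). SLC38A2 reached 2227, 2175 and 2619 CPM, the highest of any condition, from 1918 to 1997 CPM (0.29, SE 0.05, adjusted p = 0.000299). GOT2 went from 234, 235 and 243 CPM to 197, 167 and 183 CPM (-0.35, SE 0.06, adjusted p = 0.000157).

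The genes without a call were GLUD1 (-0.10, SE 0.06, adjusted p = 0.238), GOT1 (0.04, SE 0.06, adjusted p = 0.704), SLC1A5 (0.08, SE 0.06, adjusted p = 0.414) and SLC7A5 (-0.07, SE 0.05, adjusted p = 0.443). GLUD1 libraries nevertheless did not overlap, at 234 to 260 CPM without and 214 to 230 CPM with GO-203. SLC1A5, which DOX lowered in the tet-MUC1shRNA line, was at 189, 182 and 200 CPM with GO-203 and at 193, 176 and 184 CPM without. These treatments differ in agent and control, and the difference between them was not tested.

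The fourth comparison addressed MYC by DOX treatment of the tet-MYCshRNA mammospheres. GLUL, already abundant, rose 3.41-fold to the highest level of any condition, and SLC3A2 rose 1.88-fold. Both mitochondrial enzymes fell steeply, GOT2 by 3.17-fold and GLUD1 by 2.56-fold. In all, 3 genes rose and 5 fell among the 8 tested, where 58.5% of 19951 genes were called (30.3% risen and 28.1% fallen). GLUL and GOT2 passed a log2 fold change of 1.5, a size reached by 7.06% of all genes as rises and 3.39% as falls. The median of the 8 was -0.31, against 0.01 for all genes.

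GLUL was at 873, 843 and 863 CPM with vehicle and at 2722, 3098 and 3099 CPM with DOX, with a log2 fold change of 1.77 (SE 0.07, adjusted p = 2.1e-08). GOT2 was at 262, 244 and 237 CPM with vehicle and at 78.4, 82.1 and 77.7 CPM with DOX (-1.66, SE 0.06, adjusted p = 2.5e-08). GLUD1 was at 224, 220.0 and 216 CPM with vehicle and at 89.3, 85.1 and 87.5 CPM with DOX (-1.35, SE 0.06, adjusted p = 4.9e-08). With DOX both mitochondrial enzymes were below every library of 2D cells. GOT1 changed little, from 41.7 to 44.6 CPM to 34.5 to 37.0 CPM (-0.27, SE 0.07, adjusted p = 0.0108). GLUD2, a close relative of GLUD1 whose reads may be shared with it, was at 4.69 and 2.14 CPM on average.

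Of the carriers, SLC3A2 was at 123, 114 and 107 CPM with vehicle and at 188, 244 and 221 CPM with DOX (0.91, SE 0.09, adjusted p = 1.9e-05). SLC7A5 fell from 353, 323 and 312 CPM to 196, 265 and 251 CPM (-0.49, SE 0.10, adjusted p = 0.00222). SLC38A2 rose from 930.2, 928 and 967 CPM to 1343, 1110 and 1166 CPM (0.34, SE 0.08, adjusted p = 0.00385). SLC1A5 fell from 151, 137 and 131 CPM to 99.9, 113 and 123 CPM (-0.34, SE 0.08, adjusted p = 0.00652). In the DOX libraries replicate 1 stood apart from the others for the carriers, with the lowest SLC1A5, SLC7A5 and SLC3A2 and the highest SLC38A2, and the 4 calls held without it.

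The ratio of SLC3A2 to SLC7A5 counts was 0.348, 0.352 and 0.342 with vehicle and 0.959, 0.923 and 0.879 with DOX in the tet-MYCshRNA line. In the remaining conditions it averaged 0.377 in 2D cells, 0.437 in 3D cells and 0.560 with GO-203. The mRNAs of the heavy and light chain thus did not keep a fixed proportion. Similarly, GOT2 to GOT1 counts were at 5.87, 5.82 and 5.68 with vehicle and at 2.17, 2.22 and 2.25 with DOX in this line, and GLUL to GLUD1 counts averaged 3.91 and 34.1.

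**Figure D3:**
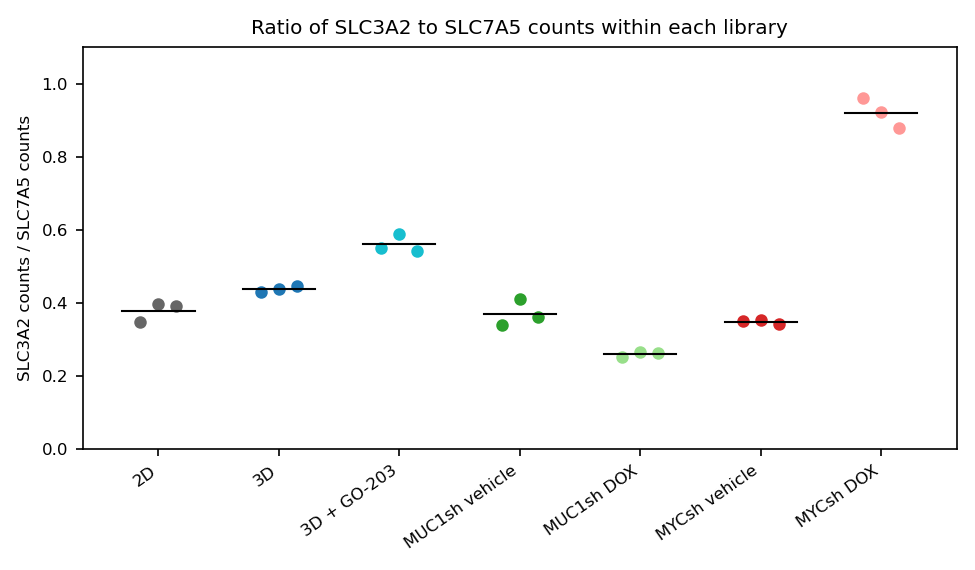
Ratio of SLC3A2 counts to SLC7A5 counts (y axis) in the 3 libraries of each of the 7 conditions (x axis), with points for libraries and bars for means. The DOX-treated tet-MYCshRNA libraries lie at 0.879 to 0.959 and the DOX-treated tet-MUC1shRNA libraries at 0.252 to 0.266.

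Whether DOX acted differently in the 2 tet lines was tested as an interaction over their 12 libraries, in which the change in tet-MYCshRNA mammospheres was subtracted from that in tet-MUC1shRNA mammospheres. It differed for 7 of the 8 genes, where 52.9% of 21585 genes were called (26.0% higher and 26.9% lower). Past 1.5 on the log2 scale were GLUL and GOT2, among 7.59% of all genes as higher and 8.56% as lower. For GLUL the difference was -2.89 (SE 0.10, adjusted p = 3.3e-13), since GLUL fell in one line and rose in the other. For GOT2 it was 1.91 (SE 0.08, adjusted p = 1.8e-12), with the opposite pair of directions. SLC3A2 fell with MUC1 silencing and rose with MYC silencing (difference -1.46, SE 0.12, adjusted p = 1.3e-08). GLUD1 and SLC1A5 fell in both lines, GLUD1 by more with MYC silencing (1.0, SE 0.07, adjusted p = 3.5e-09) and SLC1A5 by more with MUC1 silencing (-0.91, SE 0.11, adjusted p = 1.2e-06). The differences for SLC38A2 (-0.43, SE 0.08, adjusted p = 0.000408) and SLC7A5 (0.44, SE 0.12, adjusted p = 0.00549) were smaller. GOT1 was not called (0.00, SE 0.11, adjusted p = 0.991). Library size alone moved the median of all genes by 0.20 in this contrast, which is less than each of the 7 differences.

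**Figure D4:**
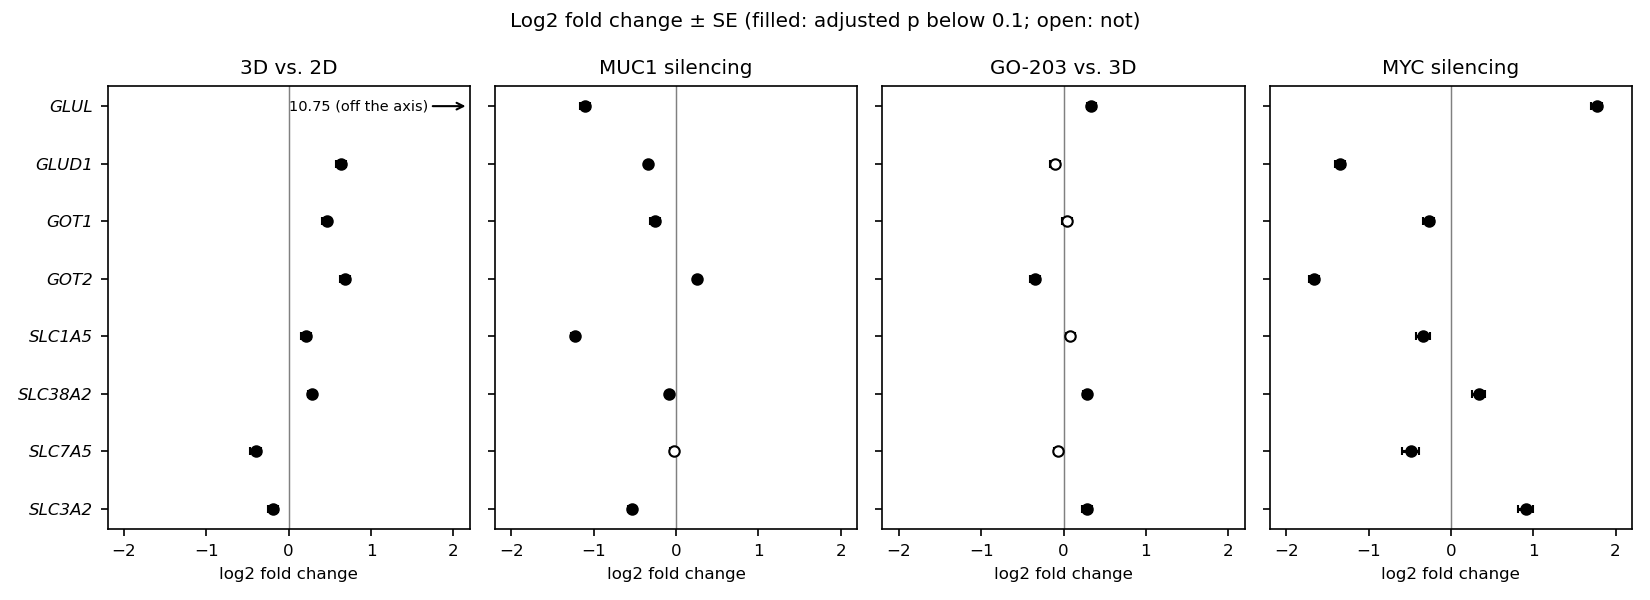
Log2 fold change with its SE (x axis) of the 8 tested genes (y axis) in each of the 4 comparisons (panels), filled where the adjusted p was below 0.1 and open where it was not. GLUL in 3D vs. 2D cells, at 10.75, is off the axis and given as a number. GLUL and SLC3A2 lie left of 0 with MUC1 silencing and right of 0 with MYC silencing, and GOT2 the reverse, and the filled point of SLC38A2 with MUC1 silencing turned to the other side under library size alone.

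Seen across the 7 conditions, the mean of log2(CPM + 1) of GLUL spanned 11.03 units, that of GOT2 1.63, GLUD1 1.59, SLC7A5 1.45, SLC1A5 1.33, SLC38A2 1.31, SLC3A2 1.06 and GOT1 0.84. Levels per kb of the MANE transcript put SLC38A2 first in 6 conditions, from 196 to 488 CPM per kb. In DOX-treated tet-MYCshRNA mammospheres GLUL was first, at 394 ± 28.8 CPM per kb (SD, n = 3), ahead of SLC38A2 at 252 ± 25.4 (SD, n = 3). GLS2 was last in every condition. GLUL was next to last in 2D cells, at 0.0563 CPM per kb, and GOT1 held that place in the other conditions, at 18.1 to 32.9 CPM per kb. In 3D cells GLUL, GOT2, SLC3A2 and SLC7A5 lay between 89.3 and 99.5 CPM per kb, and each neighbour in this order overlapped the next. Dividing by the length of all annotated exons changed the order of the genes in between, while the first and last places stayed.

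Genes with the most similar course over the 7 condition means were sought for the 4 widest spans, among 13601 genes, by the root mean square difference in log2 units after centring. Those nearest to GLUL were SRPX (0.54), SRGN (0.69) and ABLIM3 (0.83). GOT2 was followed by TEAD4 (0.13), WDR4 (0.13) and ODC1 (0.14), and GLUD1 by NLE1 (0.10), PPAT (0.10) and HDHD5 (0.11). For SLC7A5 they were POMK (0.10), PRUNE1 (0.11) and ANKS6 (0.11).

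Other genes of the pathway were read from 3 lists, by function. Of the 33 tested enzymes of glutamine and glutamate metabolism, 16 rose and 8 fell in 3D vs. 2D cells (median log2 fold change 0.22). With MUC1 silencing 5 rose and 22 fell (-0.26), with GO-203 0 rose and 6 fell (-0.06), and with MYC silencing 6 rose and 17 fell (-0.48). The medians of all genes were -0.01, 0.02, 0.02 and 0.01. These shares called, 72.7%, 81.8%, 18.2% and 69.7%, stand beside 63.7%, 62.2%, 24.1% and 58.5% of all genes.
Plasma membrane carriers of amino acids, of which 22 to 24 of 37 could be tested, rose and fell in nearly equal numbers, 8 and 8, 10 and 10, 7 and 6, and 10 and 11 in the same order of comparisons. The shares called were 72.7%, 87.0%, 59.1% and 87.5%, of which that with GO-203 stands beside 24.1% of all genes. Among 14 mitochondrial carriers and shuttle enzymes 7 rose and 3 fell in 3D cells, 4 and 6 with MUC1 silencing, 0 and 3 with GO-203, and 2 and 8 with MYC silencing, where the median was -0.39. Their shares called were 71.4%, 71.4%, 21.4% and 71.4%. Under library size alone, 9 enzymes rose and 14 fell with MUC1 silencing, and 7 genes of the mitochondrial list rose in place of 4. With the replicate block, 5 genes of that list fell with GO-203 in place of 3.

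**Figure D5:**
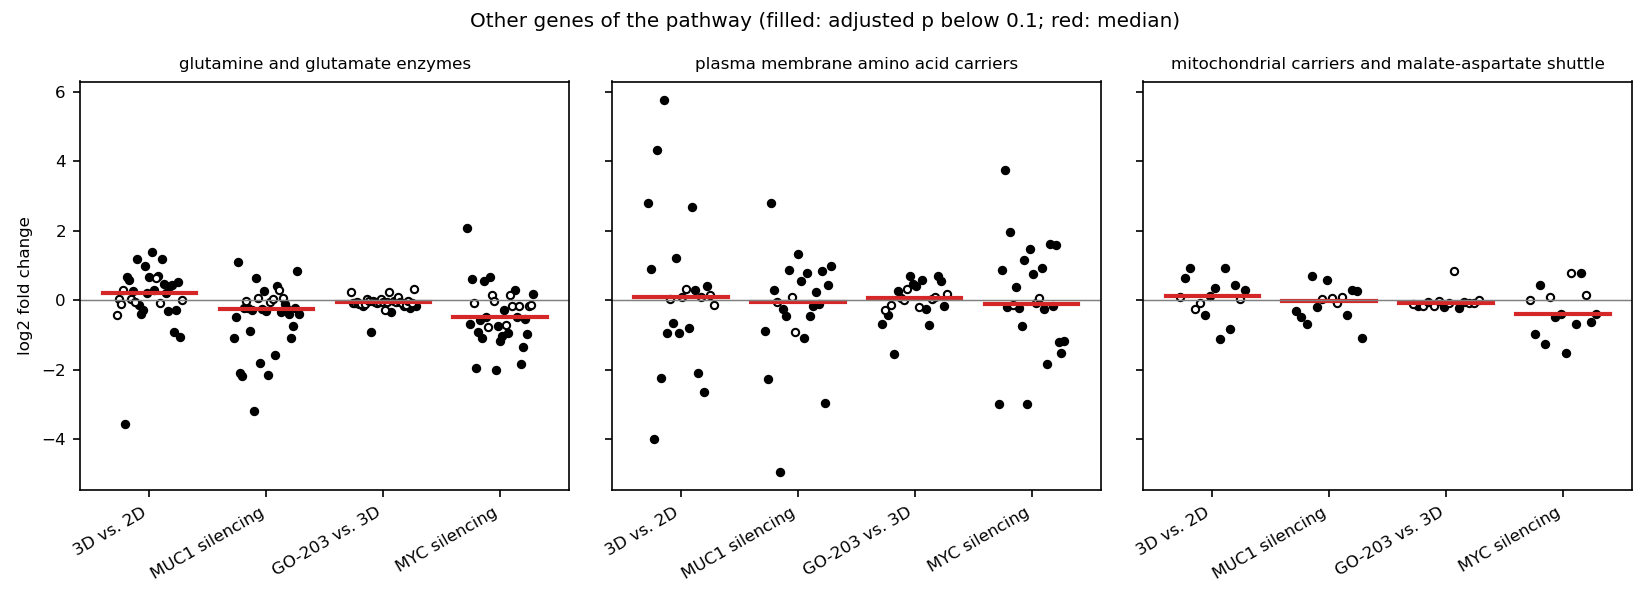
Log2 fold change (y axis) of the other genes of the pathway in the 4 comparisons (x axis), in 3 panels by list. Points are genes, filled where the adjusted p was below 0.1, and red lines are medians. The medians of the enzymes were 0.22, -0.26, -0.06 and -0.48, while carriers of the plasma membrane spread widely to both sides.

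In bulk RNA, a lower level can come from fewer cells that express a gene or from less RNA per cell, and these cannot be told apart for any of the values above.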

How the data were processed

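Total RNA of 21 BT-549 cultures was made into stranded mRNA libraries. The deposited values were raw counts, 1 per gene and library, which the authors made with STAR (GRCh38) and featureCounts. The annotation release, strand setting and treatment of reads with several positions were not given in the sources used here. Empty cells were read as 0. Some listed genes are not reported here. Identifiers matched GENCODE release 44 for 42252 of 42339 genes.

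In R 4.3.3, edgeR 4.0.16 was run on the 6 libraries of each comparison (filterByExpr, TMM factors, quasi-likelihood test, Benjamini-Hochberg adjustment over all genes tested), with calls at an adjusted p below 0.1. The SE is the log2 fold change divided by the square root of F. The interaction used 12 libraries. Replicates differed beyond sampling noise in all 21 pairs (chi-square per degree of freedom of at least 4.36).

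The members, lists and tests were chosen with earlier results of these data known, so the p-values set a change against the spread between cultures and are not independent evidence. From each wider list the text names, per comparison, at most the 4 genes with the largest absolute log2 fold change among those called, with a mean of at least 1 CPM and no overlap between groups. On simulated data with 200 genes changed by a log2 of 2, 99% were recovered for 3D vs. 2D and 91.7% for the interaction. Alternatives were DESeq2 1.42.0, RLE factors, library size alone, other filters, an adjusted p below 0.05, a log2 fold change above 1.5, all 21 libraries in one fit, a replicate block and omission of each library. Figures were drawn with matplotlib 3.10.9.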

Additional observations from a re-analysis of the deposited data

Results flagged for a closer look

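The effect of DOX differed between the tet-MUC1shRNA and tet-MYCshRNA lines, by the interaction test in edgeR over 12 libraries, for 7 of the 8 tested genes, while 52.9% of all genes differed. The change with MUC1 silencing minus that with MYC silencing was -2.89 on the log2 scale for GLUL (SE 0.10), -1.46 for SLC3A2 (SE 0.12), -0.91 for SLC1A5 (SE 0.11) and -0.43 for SLC38A2 (SE 0.08). It was 1.91 for GOT2 (SE 0.08), 1.0 for GLUD1 (SE 0.07) and 0.44 for SLC7A5 (SE 0.12). Adjusted p-values ranged from 3.3e-13 for GLUL to 0.00549 for SLC7A5. The lines also differed in passage (6 and 8), whose part cannot be told apart.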

How the results depend on the processing

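A further threshold of 1.5 on the log2 fold change left 1 rise and 0 falls in 3D vs. 2D cells, 0 and 0 with MUC1 silencing, 0 and 0 with GO-203, 1 and 1 with MYC silencing, 1 rise in vehicle-treated tet-MUC1shRNA mammospheres and 1 rise and 0 falls in vehicle-treated tet-MYCshRNA mammospheres against 2D cells, and 2 differences in the interaction. With library size alone, MUC1 silencing gave 3 rises among the members (1 in the main fit), 9 rises and 14 falls among enzymes, and 7 rises among mitochondrial carriers (4). Changes of sign were seen with MUC1 silencing for SLC38A2 (0.09) and SLC7A5 (0.13) under library size alone and for SLC7A5 (0.02) with at least 10 counts in every library, for SLC38A2 in vehicle-treated tet-MUC1shRNA mammospheres against 2D cells (-0.06) under library size alone, and for the interaction of GOT1 (-0.03) in the fit of all 21 libraries. The cause was not tested. Omission of 1 library gave -0.06 to 0.00 for SLC7A5 with MUC1 silencing, -0.02 to 0.08 for GOT1 with GO-203 and -0.06 to 0.08 for GOT1 in the interaction, none of them called. In all, among values for single genes, 369 kept direction and call, 8 lost the call and 7 changed sign on omission of a library, and 377, 10 and 5 under other settings. The main fits did not pair libraries by replicate number. In no comparison was the correlation of deviations of same-numbered libraries above 0.1 for every pair. Its mean was -0.053 in 3D vs. 2D cells, 0.035 with MUC1 silencing, 0.143 with GO-203 and -0.225 with MYC silencing. With GO-203 the values were 0.212, 0.043 and 0.173. There the replicate block called 2331 rises and 2642 falls among all genes, against 2059 and 2393 in the main fit. Whether those cultures were paired was not tested. With the replicate block, 5 in place of 3 mitochondrial carriers fell with GO-203, and among the members it removed only the call of SLC38A2 with MUC1 silencing (adjusted p = 0.117). GLS2, with at most 10 reads per library, was not tested.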

Other observations

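The wider lists held called changes in genes outside the 9 members, given here as log2 fold changes for at most 4 genes per list and comparison, all with a mean of at least 1 CPM over both groups together, past an adjusted p of 0.1 in edgeR and with no overlap between the groups' libraries. In 3D vs. 2D cells, the largest of these among the enzymes were a rise of GFPT2 (1.0) and a fall of BCAT1 (the cytosolic branched-chain transaminase, -3.56), PYCR3 (-1.06) and PSAT1 (an enzyme of serine synthesis, -0.90). Among the plasma membrane carriers they were a rise of SLC1A6 (a glutamate carrier, 5.76), SLC1A3 (a glutamate carrier, 4.32), SLC16A10 (2.81) and SLC6A15 (2.68). Among the mitochondrial carriers and shuttle enzymes they were a rise of SLC25A1 (the citrate carrier, 0.94), SLC25A22 (a glutamate carrier, 0.94) and MDH2 (the mitochondrial malate dehydrogenase, 0.65) and a fall of SLC25A29 (-0.82). With MUC1 silencing, the largest of these among the enzymes were a fall of GAD1 (a glutamate decarboxylase, -3.18), BCAT1 (-2.18), ASNS (asparagine synthetase, -2.08) and GFPT1 (an enzyme of hexosamine synthesis, -1.79). Among the plasma membrane carriers they were a rise of SLC38A7 (1.34) and a fall of SLC1A6 (-4.93), SLC7A2 (a carrier of cationic amino acids, -2.95) and SLC1A1 (-2.26). Among the mitochondrial carriers and shuttle enzymes they were a rise of SLC25A10 (the dicarboxylate carrier, 0.70) and SLC25A13 (an aspartate-glutamate carrier, 0.58) and a fall of SLC25A40 (-1.09) and SLC25A1 (-0.67).

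With GO-203, the largest of these among the enzymes were a fall of GPT2 (the mitochondrial alanine transaminase, -0.33), PYCR1 (-0.22), CAD (an enzyme of pyrimidine synthesis, -0.17) and QARS1 (-0.16). Among the plasma membrane carriers they were a rise of SLC7A11 (the light chain of the cystine-glutamate exchanger, 0.71) and SLC38A4 (0.69) and a fall of SLC1A6 (-1.54) and SLC6A6 (the taurine carrier, -0.72). Among the mitochondrial carriers and shuttle enzymes they were a fall of SLC25A22 (-0.23), SLC25A13 (-0.18) and MDH2 (-0.17). With MYC silencing, the largest of these among the enzymes were a rise of ABAT (the GABA transaminase, 2.08) and a fall of GFPT2 (-1.99), BCAT1 (-1.95) and PFAS (an enzyme of purine synthesis, -1.84). Among the plasma membrane carriers they were a rise of SLC1A4 (1.96) and SLC6A9 (a glycine carrier, 1.63) and a fall of SLC16A10 (-2.99) and SLC6A6 (-1.82). Among the mitochondrial carriers and shuttle enzymes they were a rise of SLC25A29 (0.78) and a fall of SLC25A15 (an ornithine carrier, -1.52), MDH2 (-0.96) and SLC25A22 (-0.67). Of the genes named, 5 were below a mean of 1 CPM in one of the groups compared, met the minimum only through the other group, and have folds that rest on few reads. SLC1A6 averaged 0.0821 CPM in 2D and 4.21 CPM in 3D cells, and 27.1 CPM with vehicle and 0.804 with MUC1 silencing. SLC16A10 averaged 0.288 CPM in 2D and 2.04 CPM in 3D cells, and 2.45 CPM with vehicle and 0.306 with MYC silencing. GAD1 went from 2.14 to 0.214 CPM and SLC1A1 from 2.81 to 0.570 CPM with MUC1 silencing, and ABAT from 0.485 to 2.06 CPM with MYC silencing.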
